A study of Mus musculus with 48 samples.

Results

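Igkv1-135, Igkv1-133 and Igkv1-132 are the 3 members of the Igkv1 family that lie farthest from the Jκ segments of the mouse Igκ locus. They were followed through 48 HTGTS-JoinT-seq junction lists. Their junctions were taken in every library as the entries on chromosome 6 within 200 bp of the first base after each gene's coding sequence, at mm9 positions 67560503, 67675656 and 67710408. This gave 433032 of the 7265220 junctions in the Vκ region of chromosome 6, or 5.96%, at 3 of 138 Vκ break sites. Igkv1-135 held 302620 of them (69.9%), Igkv1-133 held 73493 (17%) and Igkv1-132 held 56919 (13.1%). The assay amplifies outward from a fixed bait end at Jκ1, and each junction reports the prey position that the bait end was joined to. The libraries came from WT (clone B) and Ku70-/- (clone B1) vAbl cells, each a single line of mouse pro-B cells transformed by the Abelson kinase. For each genotype and for each of the baits JK1CE (the Jκ1 coding end) and JK1SE (the Jκ1 signal end) there were 4 conditions with 3 libraries each. These were cycling cells, and cells arrested with 3 μM STI-571 for 96 h together with DMSO, with 5 μM L67 or with 25 μM L82-G17. L67 inhibits DNA ligases I and III and L82-G17 inhibits DNA ligase I. Both inhibitors were added on the day STI-571 was given. Libraries are numbered 1 to 3 by accession order, and the labels pair no libraries.

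In V(D)J recombination the RAG1/2 endonuclease cuts between a gene segment and its recombination signal sequence (RSS). The cut leaves a hairpin-sealed coding end on the gene and a blunt signal end on the RSS. Nonhomologous end joining (NHEJ), which starts with the Ku70/Ku80 complex, joins the V and J coding ends to each other after hairpin opening and the V and J signal ends to each other, usually without loss of bases. A joint of a coding end to a signal end is called a hybrid joint. Without Ku the ends are left to alternative end joining (A-EJ), which often trims ends and uses short stretches of shared sequence, or microhomology. All 3 genes lie on the plus strand, as Jκ1 does, so joining them to Jκ1 deletes the DNA between, and their signal joint stays on the excised circle.

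The break of each gene falls on the base after its second coding exon in the annotation of this build. On mm9, Igkv1-135 spans chr6:67559739-67560502, with its coding exons at 67559739-67559787 and 67560190-67560502. Igkv1-133 spans chr6:67674908-67675655 and Igkv1-132 spans chr6:67709694-67710407, both with coding exons of the same lengths, 49 and 313 bases. The breaks lie 3.11, 3.00 and 2.96 Mb from Jκ1, with 115 kb between the first pair of genes and 34.8 kb between the second pair. The sequence around each break is shown because every joint described below is made from these bases. Each line holds the last 20 coding bases of the gene in lower case, then the heptamer and the nonamer of the RSS in capitals around the 12-base spacer. The Jκ1 line runs from its nonamer over the 23-base spacer and the heptamer into the coding bases of Jκ1 (chr6:70672517-70672575).
Igkv1-135: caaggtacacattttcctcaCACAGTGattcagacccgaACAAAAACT
Igkv1-133: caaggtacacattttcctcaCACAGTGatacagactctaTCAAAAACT
Igkv1-132: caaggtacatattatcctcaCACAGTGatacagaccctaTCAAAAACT
Jκ1: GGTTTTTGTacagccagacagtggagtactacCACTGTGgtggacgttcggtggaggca
The 3 genes had the same heptamer, CACAGTG, which 111 of the 138 sites (80.4%) also carried. The nonamer of Igkv1-135 was present at 5 of the 138 sites (3.62%), and the nonamer TCAAAAACT was found only at Igkv1-133 and Igkv1-132 (1.45% of sites). Over the 28 bases of the RSS, Igkv1-133 and Igkv1-132 differed at 1 position, whereas Igkv1-135 differed from them at 4 and 3 positions. The last 100 coding bases were 95% identical between Igkv1-135 and Igkv1-133, 90% between Igkv1-135 and Igkv1-132, and 93% between Igkv1-133 and Igkv1-132. Prey alignments had median lengths between 153 and 189 bases at the 3 genes.

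Libraries of arrested cells held 130546 to 385847 junctions from the coding end bait and 116039 to 352630 from the signal end bait, and those of cycling cells held 8294 to 32108. Duplicate reads were kept in the lists, so a joint that was copied often counts many times, and counting intervals or limits cover counting error only. Library 1 of the Ku70-/- DMSO group stood apart with each bait: it held 927 distinct junctions in the Vκ region with the coding end bait and 965 with the signal end bait, against 10973 to 13710 in libraries 2 and 3. At Igkv1-135 it held 35 and 47 distinct junctions, against 339 to 498, and at Igkv1-132 with the coding end bait it held 2. Results that rest on it are given with and without it. The study calls its experiments biologically repeated, but neither it nor the labels say for these libraries whether those of a group came from separate cultures, so p-values measure the spread between libraries, which may in part be technical. Each genotype is 1 line, so loss of Ku70 and other differences between the lines cannot be told apart.

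From the coding end, Igkv1-135 was the one gene of the 3 that took a larger share of Vκ junctions in Ku70-/- cells. Usage is given as junctions per 1000 junctions of the Vκ region. In arrested WT cells with DMSO its usage was 23.4, 22.7 and 22.7 in the 3 libraries. The Ku70-/- libraries had 36.6, 52.3 and 53.7. The groups did not overlap, and the lowest Ku70-/- value was that of library 1. The difference of means on the log2 scale was 1.03 (95% interval 0.80 to 1.26), or 2.04-fold, with a limma adjusted p of 1.95e-08. That fit shares its estimate of the spread over all arrested groups. In the limma fit of only the groups compared the adjusted p of Igkv1-135 was 0.0101. Of all 112 sites tested in this comparison 22.3% passed the threshold, and of the 3 genes Igkv1-135 and Igkv1-133 did. Usage is a share of a fixed total, and the median log2 difference over all tested sites was -0.60. With each library centred on its median site, the value of Igkv1-135 was 1.62 (adjusted p = 3.24e-05) and that of Igkv1-133 was -0.04 and no longer called. With each distinct junction counted once it was 1.35 for Igkv1-135, and the calls of the other genes changed, as given below.

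Igkv1-133 had the opposite direction from the coding end. Its usage was 10.8, 11.6 and 13.2 in WT cells and 4.47, 8.59 and 11.6 in Ku70-/- cells, and the highest Ku70-/- library lay within the WT range. The log2 difference was -0.63 (95% interval -1.08 to -0.17, adjusted p = 0.0394 by limma). It fell to -0.24 and below the threshold without library 1 of the Ku70-/- group, and leaving out any 1 of the WT libraries also ended the call, at -0.55 to -0.69. With each distinct junction counted once it was -0.30 and not called (adjusted p = 0.110), and it was not called in the fit of only the groups compared (adjusted p = 0.478). Igkv1-132 had 5.32, 4.44 and 4.46 per 1000 in WT cells and 2.63, 5.01 and 6.29 in Ku70-/- cells, with overlapping ranges. Its log2 difference was -0.11 with a 95% interval from -0.67 to 0.45, and -0.53 with a call when each distinct junction was counted once (adjusted p = 0.0469).

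**Figure D1:**
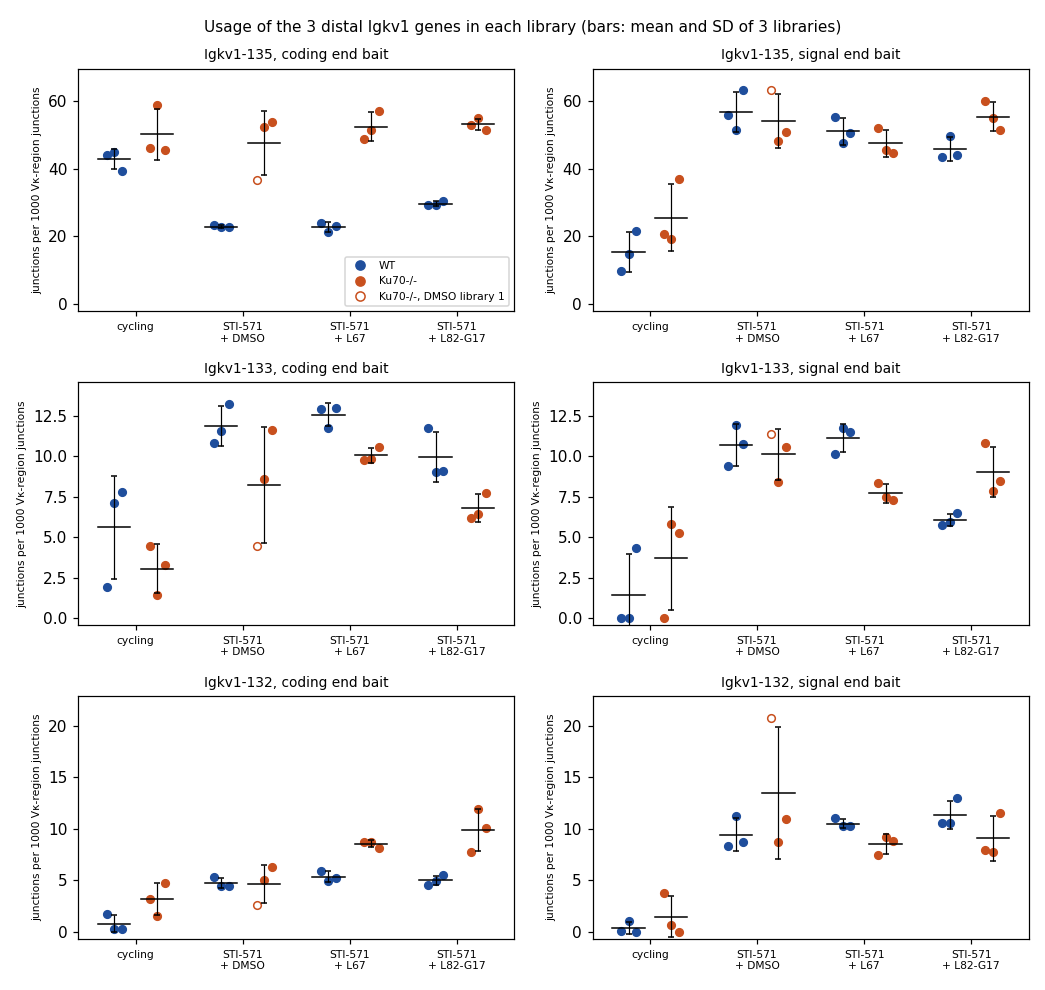
Usage of Igkv1-135, Igkv1-133 and Igkv1-132 in junctions per 1000 Vκ junctions, 1 point per library, for each genotype and condition, with the baits in separate columns and a scale of its own for each gene. Bars give the mean and SD of 3 libraries, and open points mark library 1 of the Ku70-/- DMSO groups. From the coding end bait, every arrested Ku70-/- library had more Igkv1-135 (36.6 to 57 per 1000) than any arrested WT library (21.2 to 30.5).

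From the signal end, none of the 3 genes differed between the genotypes past the threshold. Igkv1-135 had 55.7, 51.4 and 63.0 per 1000 in WT cells and 63.2, 48.1 and 50.8 in Ku70-/- cells. Those ranges overlapped almost entirely, and the log2 difference was -0.08 (95% interval -0.31 to 0.16). For Igkv1-133 the values were 9.39, 11.9 and 10.8 against 11.4, 8.38 and 10.6, a log2 difference of -0.09 (95% interval -0.54 to 0.37). For Igkv1-132 they were 8.34, 11.3 and 8.69 against 20.8, 8.70 and 10.9, where the high value was that of library 1. Its log2 difference was 0.42 (95% interval -0.13 to 0.98), which came to 0.061 without library 1 (adjusted p = 0.907) and to 0.69, a call, without Ku70-/- library 2 (adjusted p = 0.0421). In the same comparison 45.5% of the tested sites passed the threshold by limma, and none of the 3 genes had an unadjusted p under 0.05. Counting each distinct junction once turned the log2 difference of Igkv1-135 to 0.87 and that of Igkv1-133 to 0.46, both past the threshold. The share of all sites called with that counting is not given here. Distinct counting merges joints that are alike, and in WT cells 1 joint made up most signal joints of each gene, as described below.

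The 2 baits ranked Igkv1-135 differently in WT cells. Its usage with DMSO went from 22.9 ± 0.381 (SD, n = 3) from the coding end to 56.7 ± 5.88 from the signal end. That is a log2 difference of 1.30 (95% interval 1.07 to 1.54), 2.47-fold, with an adjusted p of 7.54e-10 and no overlap. Igkv1-132 was also higher from the signal end, at 9.44 ± 1.61 against 4.74 ± 0.503, by a log2 difference of 0.99 (adjusted p = 0.00944). Without WT signal end library 2 that of Igkv1-132 was 0.85 and past the threshold no longer (adjusted p = 0.0651), and centred on the median site it was 1.04 (adjusted p = 0.0558). Igkv1-133 was level, at 10.7 ± 1.28 and 11.9 ± 1.25, with an interval from -0.60 to 0.30. Between the baits 17.9% of sites differed in WT cells. Counted once per distinct junction, the bait difference of Igkv1-135 came down to 0.41 and that of Igkv1-132 to 0.05.

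The bait difference of Igkv1-135 did not pass the threshold in Ku70-/- cells. The gene had 47.5 ± 9.51 per 1000 from the coding end and 54.0 ± 8.06 from the signal end, a log2 difference of 0.19 (95% interval -0.04 to 0.43). Per 1000 distinct junctions it had 37.8, 37.2 and 39.3 from the coding end and 48.7, 31.4 and 30.9 from the signal end. The WT values counted so were 15.7, 14.1 and 15.2 against 20.3, 19.1 and 19.3. The test of the difference between the genotypes in the bait effect gave a log2 value of -1.11 (95% interval -1.44 to -0.78, adjusted p = 7.57e-06), and it held with each library left out in turn. In the limma fit of only the groups compared its adjusted p was 0.0168. For this test 23.2% of all sites passed the threshold, and Igkv1-133 and Igkv1-132 did not (0.54 each, adjusted p = 0.234 and 0.348). Without Ku70-/- coding end library 3, Igkv1-133 was called in this test (0.84, adjusted p = 0.0271) and between the baits in Ku70-/- cells (0.69, adjusted p = 0.0183). Without coding end library 1 the values were 0.16 (adjusted p = 0.701) and 0.0042 (adjusted p = 0.981). Igkv1-132 alone was called between the baits within Ku70-/- cells, where 22.3% of sites were. It rose from 4.64 ± 1.86 to 13.5 ± 6.43, by a log2 difference of 1.52 (adjusted p = 3.45e-04). Library 1 had the lowest coding end value and the highest signal end value. Without library 1 of 1 bait the difference was 1.16, and without that of both baits it was 0.80 (adjusted p = 0.00743), and each of these was called. Fitted on only the groups compared, the difference of 1.52 was not called (adjusted p = 0.783).

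**Figure D2:**
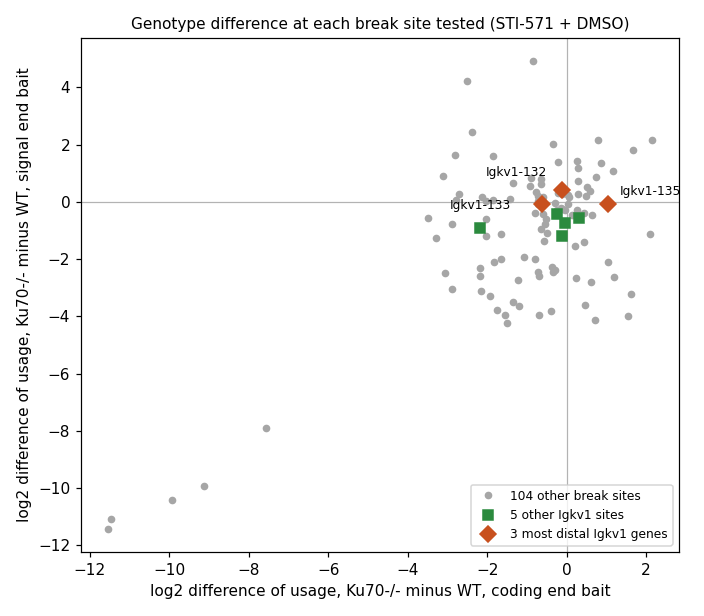
Log2 difference of usage, Ku70-/- minus WT with DMSO, at each of the 112 tested break sites, with the coding end bait on the horizontal axis and the signal end bait on the vertical axis. Diamonds mark the 3 genes, squares 5 other Igkv1 sites and grey points the rest. Igkv1-135 lies at 1.03 on the horizontal and -0.08 on the vertical axis.

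Among all sites Igkv1-135 had the highest mean usage of the 138 in each of the 6 groups of arrested Ku70-/- libraries. In WT cells it was also first from the signal end with DMSO and with L67 and second with L82-G17. From the WT coding end it was only 11th with DMSO, 10th with L67 and 2nd with L82-G17. Igkv1-133 and Igkv1-132 ranked between 26th and 64th in the arrested groups. The order Igkv1-135 above Igkv1-133 above Igkv1-132 held in all 3 WT coding end libraries of every arrested condition without overlap. From the signal end Igkv1-133 and Igkv1-132 overlapped in WT cells with DMSO and with L67. With L82-G17 the order turned, at 5.77, 5.97 and 6.47 for Igkv1-133 against 10.6, 10.6 and 13.0 for Igkv1-132. The 3 genes together supplied 39.5 ± 0.806 per 1000 from the WT coding end with DMSO, 60.4 ± 14.8 from the Ku70-/- coding end, 76.9 ± 4.91 from the WT signal end and 77.6 ± 15.8 from the Ku70-/- signal end.

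The other 6 sites of the Igkv1 family were set beside them as a description. Of these, 5 could be tested between genotypes from the coding end, none was called, and their median log2 difference was -0.12, with a range from -2.17 to 0.31. Over the 44 other deletional sites tested the median was -0.63, with 2 called up and 7 called down. From the signal end 3 of the 5 other Igkv1 sites were called lower in Ku70-/- cells, and the 5 had a median of -0.75 and a range from -1.18 to -0.42, and the other deletional sites had a median of -1.39 with 23 called down and 2 up. The 3 most distal genes had a median of -0.08 there. The break sites were found from WT signal end junctions, so sites used in WT cells alone are among them and sites used in Ku70-/- cells alone are not. How far that choice lowers the Ku70-/- medians over the sites was not tested. Beyond the 3 genes, toward the far end of the locus, lie only Igkv2-137 and 1 site with no annotated gene, and both stayed under 1 per 1000 with DMSO in the mean of each group.

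The sites whose usage ran most like the mean of the 3 genes over the 24 libraries of a bait were Igkv12-41 (Pearson r = 0.89), Igkv16-104 (0.87) and an unannotated site (0.80) from the coding end. For the signal end bait they were Igkv16-104 (0.84), Igkv1-122 (0.84) and Igkv12-98 (0.83). Cycling and arrested libraries of very different depth enter these values. Over arrested libraries alone they were 0.56, 0.68 and 0.64, and 0.49, 0.10 and -0.43. Among themselves Igkv1-135 and Igkv1-133 had r = -0.51 from the coding end and 0.87 from the signal end (-0.52 and 0.61 over arrested libraries). Igkv1-135 and Igkv1-132 had 0.0059 and 0.79 (0.63 and 0.088 over arrested libraries), and Igkv1-133 and Igkv1-132 had 0.34 and 0.55 (-0.049 and 0.14).

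Neither ligase inhibitor moved Igkv1-135 past the threshold in any genotype or bait. With L67 it had 23.9, 21.2 and 23.1 per 1000 from the WT coding end and 55.1, 47.4 and 50.4 from the WT signal end. The log2 differences from DMSO were -0.01 (95% interval -0.25 to 0.22) and -0.15 (95% interval -0.39 to 0.08). Ku70-/- cells with L67 had 48.6, 51.4 and 57.0 from the coding end and 52.0, 45.6 and 44.7 from the signal end. Of the 12 tests of L67 on the 3 genes none was called by limma and 2 had an unadjusted p under 0.05. Over the 4 comparisons 0.893% of all site tests were called. The largest of the 12 was that of Igkv1-132 from the Ku70-/- coding end, at 8.74, 8.74 and 8.16 per 1000 against 2.63, 5.01 and 6.29 with DMSO. These groups did not overlap, and the log2 difference was 0.97 (95% interval 0.41 to 1.53, adjusted p = 0.0526). It was called without DMSO library 2 (1.07) or 3 (1.23), and without DMSO library 1 it was 0.61 (adjusted p = 0.876). The coding end value of Igkv1-133 was called without DMSO library 3 (0.70) and was 0.0086 without library 1. From the signal end that of Igkv1-132 was called without DMSO library 2 (-0.83) and was -0.20 without library 1.

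With L82-G17, Igkv1-135 had 29.2, 29.2 and 30.5 per 1000 from the WT coding end, all above the DMSO libraries, a log2 difference of 0.37 (95% interval 0.14 to 0.60, adjusted p = 0.0729). From the WT signal end it had 43.5, 49.7 and 44.1, all below the DMSO libraries, a log2 difference of -0.31 (95% interval -0.54 to -0.07, adjusted p = 0.119). With both Ku70-/- libraries of few distinct junctions left out of the fit, which changes its estimate of the spread, these became calls (adjusted p = 9.92e-04 and 0.00409), as they did in the fit of only the groups compared (adjusted p = 1.59e-04 and 0.00429). The share of sites called was 1.79% in the WT coding end comparison and 5.36% in the WT signal end comparison. In the latter Igkv1-133 was called, at 5.77, 5.97 and 6.47 against 9.39, 11.9 and 10.8 with DMSO. Its log2 difference was -0.81 (95% interval -1.26 to -0.36, adjusted p = 0.0231). Leaving out WT DMSO library 2 or 3 or L82-G17 library 1 or 2 ended that call, with values from -0.73 to -0.80, as did centring on the median site (-0.89, adjusted p = 0.202), and counting distinct junctions once gave 0.049.

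The coding end usage of Igkv1-132 in Ku70-/- cells was higher with L82-G17, in a call that several alternatives ended. It had 7.80, 11.9 and 10.1 per 1000 against 2.63, 5.01 and 6.29 with DMSO, and the groups did not overlap. The log2 difference was 1.16 (95% interval 0.60 to 1.72, adjusted p = 0.00801) in a comparison where 7.14% of sites were called. Without DMSO library 1 it was 0.80 (adjusted p = 0.0705) and without L82-G17 library 2 it was 1.02 (adjusted p = 0.0703). Centred on the median site it was 0.64 (adjusted p = 0.321), and in the fit of only the groups compared its adjusted p was 0.531. From the Ku70-/- signal end 11.6% of sites were called and none of the 3 genes was, nor did any have an unadjusted p under 0.05. The value of Igkv1-132 there was -0.49. It became -0.76, a call, without DMSO library 2 (adjusted p = 0.0388) and -0.13 without library 1 (adjusted p = 0.912). Tests of the difference between genotypes in an inhibitor effect called none of the 3 genes in 12 tests by limma (4 with an unadjusted p under 0.05), against 0.446% of all site tests. Without both libraries of few distinct junctions 2 were called, Igkv1-135 (0.47) and Igkv1-133 (0.74) from the signal end with L82-G17. The compounds were given at different doses, and their values are set side by side without a comparison between them.

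All 3 genes held a larger share of WT signal end junctions in arrested than in cycling libraries. Cycling libraries held few junctions of these genes. Igkv1-135 had 210, 310 and 416 junctions there, or 9.88, 14.9 and 21.5 per 1000, all below the 51.4 to 63.0 of the arrested DMSO libraries. The log2 difference was 1.94 (95% interval 1.40 to 2.48, adjusted p = 3.05e-05). Igkv1-133 had 0, 0 and 84 junctions in the cycling libraries. With copies taken as separate counts, a count of 0 allows up to 0.141 and 0.145 per 1000 in libraries 1 and 2, and library 3 had 4.34. Libraries 1 and 2 held only 284 and 281 distinct junctions in the Vκ region, so limits on separate joints are far wider. Igkv1-132 had 1, 23 and 0 junctions. Both lay below every arrested library and passed the threshold (adjusted p = 0.00343 and 4.74e-04), with log2 differences of 5.63 and 5.72 that depend on the value of 1 junction added before the logarithm. Of all sites, 27.8% of 108 were called. Counted once per distinct junction, of which the cycling libraries had 0 to 6 per gene, none of the 3 was called. So counted, Igkv1-135 had 21.1, 10.7 and 11.1 per 1000 in cycling and 20.3, 19.1 and 19.3 in arrested libraries. With copies counted, the median usage of the other Igkv1 sites was 2.79 in cycling and 17.8 in arrested libraries. That of the other deletional sites was 0.457 and 2.16. Why the shares differed was not tested.

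The other arrest comparisons called fewer of the genes. From the Ku70-/- signal end Igkv1-135 rose from 20.6, 19.2 and 36.8 per 1000 in cycling to 63.2, 48.1 and 50.8 in arrested libraries, a log2 difference of 1.12 (adjusted p = 0.00333). That call ended when the values were centred on the median site (1.79e-04, adjusted p = 0.9996) and when only the groups compared were fitted (1.12, adjusted p = 0.145). Igkv1-132 rose there too (19, 2 and 0 junctions in cycling libraries, adjusted p = 0.0134), a call that ended without cycling library 3 (adjusted p = 0.0930), with distinct junctions (adjusted p = 0.114), when centred (adjusted p = 0.0814) and in the fit of only the groups compared (adjusted p = 0.110), and Igkv1-133 did not pass (adjusted p = 0.211). In that comparison 24.1% of sites were called. With the coding end bait, 0% of sites were called in WT cells (16 of 108 had an unadjusted p under 0.05) and 14.8% in Ku70-/- cells, and none of the 3 genes in either. Igkv1-135 had 43.9, 45.0 and 39.3 per 1000 in cycling WT libraries, all above the arrested ones. Its log2 difference was -0.90 (95% interval -1.44 to -0.35, adjusted p = 0.0589), and it was called when both Ku70-/- libraries of few distinct junctions were left out of the fit (adjusted p = 0.0269) and when only the groups compared were fitted (adjusted p = 1.49e-04). The other two genes had the opposite direction there, again with no overlap. Igkv1-133 had 1.93, 7.11 and 7.78 per 1000 in cycling libraries, a log2 difference of 1.30 (95% interval -1.5 to 4.11, adjusted p = 0.761). Igkv1-132 had 1.78, 0.330 and 0.306, from 36, 9 and 9 junctions, a log2 difference of 2.95 (95% interval 0.71 to 5.19, adjusted p = 0.166), which was called in the fit of only the groups compared (adjusted p = 0.0123).

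With copies counted, the kind of end joined differed between the genotypes at all 3 genes. So counted, hybrid joints were rare in WT cells: over the 9 arrested libraries of a bait no gene exceeded 1.32% from the coding end or 1.77% from the signal end. At Igkv1-135 from the coding end they made up 0.177, 0.0510 and 0.459% of junctions in WT cells with DMSO and 27.1, 29.9 and 33.3% in Ku70-/- cells. The groups lay far apart, and the odds of a hybrid joint were 252-fold higher in Ku70-/- cells (95% interval 54.0 to 1181, limma adjusted p = 1.26e-07). In the limma fit of only the groups compared the adjusted p was 7.27e-04. The 252-fold value counts copies of a joint. With each distinct junction counted once the shares were nearer, at 1.05, 0.625 and 2.81% in WT and 20, 29.1 and 31.2% in Ku70-/- cells. From the signal end, with copies counted, the shares were 1.04, 0.622 and 0.145% against 3.19, 16 and 21.7%, with library 1 the lowest, and the odds were 26.1-fold higher (95% interval 5.59 to 122, adjusted p = 2.64e-04). On the log2 scale that difference of 4.71 became 5.64 without library 1. Its adjusted p in the limma fit of only the groups compared was 0.0206. With each distinct junction counted once the signal end shares overlapped, at 22.6, 10.8 and 13.5% in WT and 10.6, 25.3 and 28.9% in Ku70-/- cells.

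Igkv1-133 and Igkv1-132 moved the same way with wider spread. From the coding end Igkv1-133 had 0.153, 0 and 0.262% hybrid joints in WT cells, where 0 of 3994 junctions allows up to 0.0751%. That limit takes copies as separate counts, and the 3994 junctions held 125 distinct ones. The Ku70-/- libraries had 88.4, 23.5 and 27.1%. The 88.4% of library 1 came from 430 junctions of which 368 were copies of 1 joint. The log2 difference of the odds was 10.17 (adjusted p = 4.47e-06), 8.67 without library 1, and it was called with any library left out. Igkv1-132 had 1.25, 0 and 0.842% against 0, 34.1 and 33.2%. Here library 1 had 0 of 253 junctions and overlapped the WT libraries, yet the log2 difference of 4.58 was called (adjusted p = 0.0130), and it was 7.25 without library 1. Without WT library 2 it was 2.91, and without Ku70-/- library 2 or 3 it was 3.23 or 3.26, and none of these was called. From the signal end the shares of Igkv1-133 were 1.25, 0 and 0.878% against 0.308, 13.3 and 23.8%, those of Igkv1-132 0, 0.0539 and 0.386% against 8.08, 19.7 and 21.6%. Both were called (adjusted p = 0.0202 and 1.45e-04). The call of Igkv1-133 was lost without WT library 2 (2.35 in place of 4.48) and without Ku70-/- library 2 or 3 (3.74 and 3.22), and without library 1 it was 6.48. Counted once per distinct junction, of which WT libraries had few, the signal end difference was 0.46 at Igkv1-135 and 0.69 at Igkv1-133, neither called, and 2.20 at Igkv1-132, which was called.

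In the fit of only the groups compared, the coding end call of Igkv1-132 (adjusted p = 0.111) and the signal end call of Igkv1-133 (adjusted p = 0.154) were lost. In the fit of all arrested libraries the 3 genes were called from both baits, and so were 93.8% of all sites from the coding end and 80.4% from the signal end. With L67, Igkv1-135 had 29.1, 34.4 and 40.5% hybrid joints in Ku70-/- cells from the coding end and 19.5, 26.9 and 25.0% from the signal end. With L82-G17 the Ku70-/- shares were 21.2, 24.3 and 19.5% and 12.8, 27.1 and 16.2%. The latter coding end values were all below those with DMSO, but none of the 24 inhibitor tests on the 3 genes was called by limma and none had an unadjusted p under 0.05 (0.781% of all site tests called). The intervals were wide, reaching from -5.50 to 6.30 on the log2 scale of the odds over the 24 tests.

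**Figure D3:**
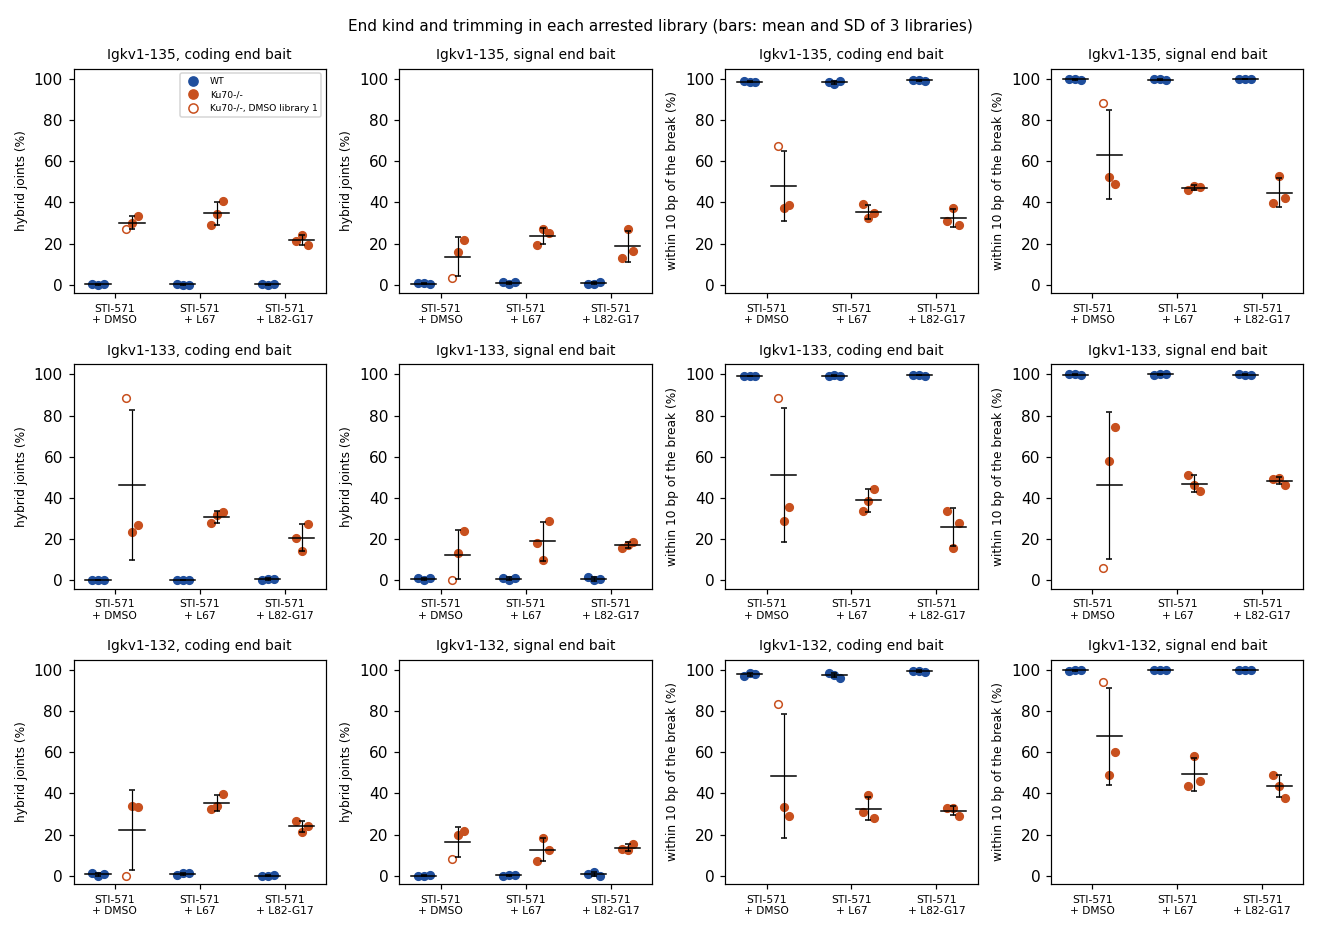
Share in percent of hybrid joints (left columns) and of junctions within 10 bp of the break (right columns) in the arrested libraries, 1 row of panels per gene, 1 point per library, with the mean and SD of 3 libraries as bars. Open points mark library 1 of the Ku70-/- DMSO groups. WT hybrid shares stay at or under 1.77%, and all Ku70-/- libraries other than those marked lie at or above 7.20%.

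Breaks were trimmed at all 3 genes in Ku70-/- cells. Of the junctions within 100 bp of the break of Igkv1-135, the share within 10 bp from the coding end was 98.9, 98.5 and 98.5% in WT cells and 67.4, 37.5 and 38.8% in Ku70-/- cells. Library 1 was the least trimmed of the Ku70-/- libraries, and no library overlapped. The log2 difference of the odds was -6.32 (95% interval -8.24 to -4.39, adjusted p = 9.23e-07). In the limma fit of only the groups compared the adjusted p of Igkv1-135 was 5.06e-04. Igkv1-133 had 99.4, 99.3 and 99.1% against 88.4, 28.8 and 35.7%, and Igkv1-132 had 97.1, 98.4 and 98.1% against 83.4, 33.5 and 29.1%. The differences were -6.82 and -5.53 (adjusted p = 2.34e-06 and 2.61e-05). Without library 1 those of the 3 genes were -6.90, -8.15 and -6.68. WT shares from the signal end lay between 99.6 and 100%. The Ku70-/- shares were 88.4, 52.2 and 49.1% at Igkv1-135, 5.80, 57.7 and 74.6% at Igkv1-133 and 94.0, 49.0 and 60.3% at Igkv1-132. All 3 genes were called from each bait and with every single library left out. In the fit of all arrested libraries 92.9% of all sites were called from the coding end and 92.9% from the signal end.

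Counted in bases, the median loss from joints to the same kind of end as the bait was 1 to 3 bases at the coding ends of WT cells. The medians were 1, 1 and 1 at Igkv1-135 and at Igkv1-133, and 3, 2 and 2 at Igkv1-132. The Ku70-/- medians were 2, 14 and 14 at Igkv1-135, 15, 15 and 15 at Igkv1-133 and 1, 24 and 20 at Igkv1-132. At the signal ends all WT medians were 0 bases, and the Ku70-/- medians were 2, 10 and 10 at Igkv1-135, 13, 8 and 2 at Igkv1-133 and 0, 6 and 6 at Igkv1-132. Over arrested Ku70-/- libraries other than library 1 they ranged from 12 to 24 bases at coding ends and from 2 to 15 at signal ends. The gene's coding end was kept whole in 29.9, 29.9 and 33.4% of coding joints of Igkv1-135 in WT cells and in 0, 1.06 and 2.41% in Ku70-/- cells.

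**Figure D4:**
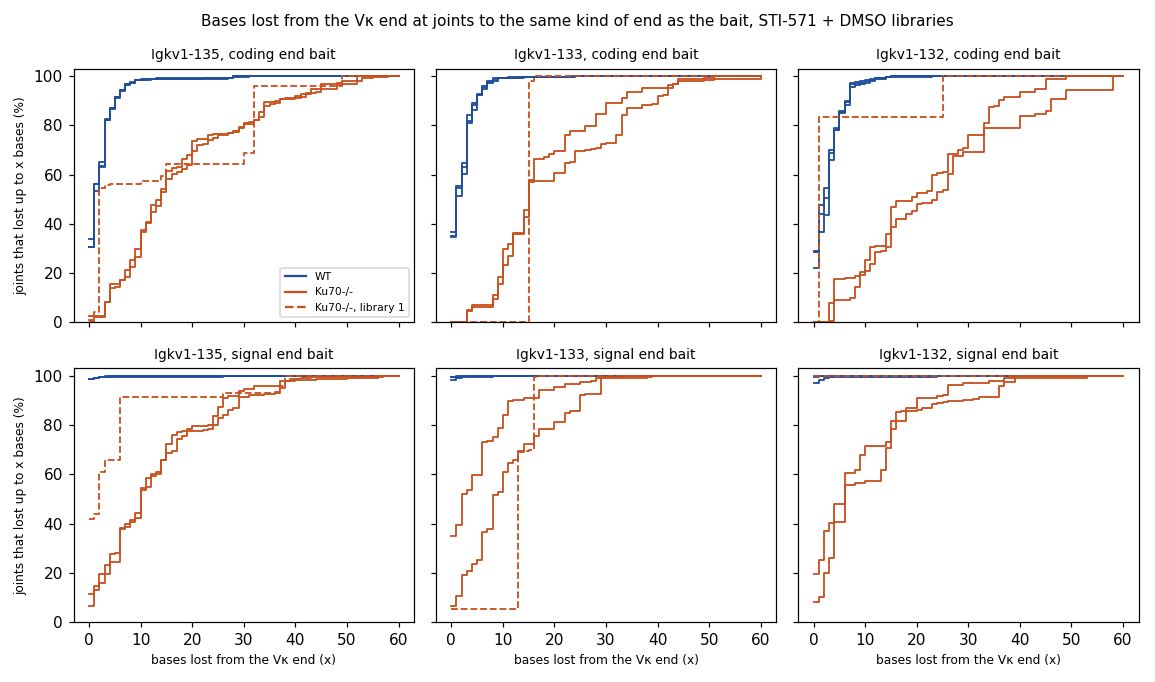
Cumulative share in percent of joints to the same kind of end as the bait against the number of bases lost from the end of each gene, for the DMSO libraries, 1 line per library, with a column of panels per gene and a row per bait. Dashed lines mark library 1 of the Ku70-/- groups. At 10 bases the WT coding end curves of Igkv1-135 stand at 98.9, 98.5 and 98.5%, and those of Ku70-/- libraries 2 and 3 at 36.9 and 37.7%.

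With the inhibitors the share within 10 bp stayed between 96.3 and 100% in WT cells at all 3 genes. In Ku70-/- cells with L67 it was 39.0, 32.5 and 34.6% from the coding end at Igkv1-135, and with L82-G17 it was 30.7, 37.2 and 29.1%. None of the 24 inhibitor tests on the 3 genes was called by limma and 1 had an unadjusted p under 0.05 (0.335% of all site tests called). That was Igkv1-135 with L82-G17 from the WT signal end, at 100, 100 and 99.7% against 99.8, 99.9 and 99.6% with DMSO (log2 difference of the odds 2.55, adjusted p = 0.212), and it was called without L82-G17 library 3 (4.01).

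A joint was sorted as microhomology where more than 1 bp of the read aligned to both the bait and the prey, among joints with an overlap or gap of at most 20 bp. From the coding end Igkv1-135 had 2.05, 1.76 and 1.66% such joints in WT cells and 6.23, 18.9 and 19.3% in Ku70-/- cells. No library overlapped and library 1 was again nearest to WT, but the log2 difference of the odds of 3.06 did not pass the threshold (adjusted p = 0.0702). Without library 1 it was 3.67 (adjusted p = 0.0481). Igkv1-133 had 1.77, 1.13 and 1.64% against 2.56, 19.3 and 20.2%, a log2 difference of 2.96 (adjusted p = 0.0602) that became 4.02 (adjusted p = 0.0153) without library 1. Igkv1-132 had 3.64, 1.77 and 1.55% against 0, 28.7 and 16.1%, and its groups overlapped through library 1. Its log2 difference was 1.26 (adjusted p = 0.567), and without library 1 it was 3.64 (adjusted p = 0.0844), or a call at the same value when the signal end library 1 was left out of the fit too (adjusted p = 0.0123). None of the 3 genes was called by limma from the coding end (2 had an unadjusted p under 0.05), against 52.7% of all sites. With distinct junctions counted once all 3 were (1.71, 2.66 and 1.72 for Igkv1-135, Igkv1-133 and Igkv1-132), and in the fit of only the groups compared Igkv1-135 (adjusted p = 0.0148) and Igkv1-133 (adjusted p = 0.0479) were. The share of all sites called in these alternatives is not given here.

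Microhomology rose from the signal end at Igkv1-135 and Igkv1-133. Igkv1-135 went from 0.855, 1.08 and 0% in WT to 8.14, 18.8 and 20.2% in Ku70-/- cells, a log2 difference of the odds of 7.04 (adjusted p = 8.83e-05). In the limma fit of only the groups compared its adjusted p was 0.0276. Igkv1-133 had 1.25, 0.0255 and 0.538% against 0.493, 31.4 and 25.6% (4.97, adjusted p = 0.00143), with library 1 inside the WT range. The latter difference was 7.05 without library 1, and it was not called in the fit of only the groups compared (adjusted p = 0.0676). Igkv1-132 had 0.351, 1.32 and 0% against 0, 17.6 and 27.0% (adjusted p = 0.0743), and the value without library 1 was called (7.09, adjusted p = 1.69e-04), as was that without WT library 2 (4.88, adjusted p = 0.0321). With 79.5% of all sites called, 2 of the 3 genes were, and none with each distinct junction counted once (1.27, 0.65 and 0.55). The inhibitors changed the share at none of the 3 genes past the threshold in 24 limma tests, of which 1 had an unadjusted p under 0.05 (0.558% of all site tests called).

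Direct joints, with neither overlap nor gap, made up most WT joints. At Igkv1-135 they were 73.4, 75.3 and 73.0% from the coding end in WT cells and 45.8, 49.0 and 52.0% in Ku70-/- cells. The groups did not overlap, and the odds were 2.96-fold lower (95% interval of the log2 difference -2.42 to -0.71, adjusted p = 0.00780). Igkv1-133 had 73.8, 75.1 and 74.3% against 0, 46.5 and 45.4%, and its call (-4.95, adjusted p = 0.0239) was lost without library 1 of the Ku70-/- group (-1.77), without any 1 WT library or in the fit of only the groups compared (adjusted p = 0.264). Igkv1-132 had 68.2, 80.3 and 76.2% against 100, 38.8 and 45.6%. Its log2 difference was 1.09 (adjusted p = 0.547) with library 1 and -2.06 (adjusted p = 0.0334) without it. From the coding end 24.1% of all sites were called.

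At the signal end 97.4, 97.2 and 98.2% of WT joints of Igkv1-135 were direct, against 87.0, 59.5 and 58.7% in Ku70-/- cells (log2 difference of the odds -4.12, adjusted p = 2.53e-09, and -4.85 without library 1). In the limma fit of only the groups compared the adjusted p of Igkv1-135 was 0.00966. All 3 genes were called there, as were 78.6% of sites. The call of Igkv1-133 (-3.44) was lost without WT library 2 or 3 or Ku70-/- library 2 or 3, at -2.32 to -3.40, and in the fit of only the groups compared (adjusted p = 0.125), and it was -5.57 without library 1. Counted once per distinct junction, these differences changed sign at Igkv1-135 and Igkv1-133 from both baits and at Igkv1-132 from the signal end. From the signal end 1 of the 3 genes was called with the changed sign. None of the 24 inhibitor tests on direct joints was called by limma (3 with an unadjusted p under 0.05), against 0.558% of all site tests. Without Ku70-/- coding end DMSO library 2 or 3, L67 was called at Igkv1-133 (5.15 and 5.12) and at Igkv1-132 (-4.26 and -4.05), and without library 1 the values were 0.38 and 0.57. Without signal end DMSO library 2 or 3, L82-G17 was called at Igkv1-135 (-1.65 and -1.67), and without library 1 the value was -0.55.

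From the coding end insertions were rarer in Ku70-/- cells than in WT cells at all 3 genes, as a share of all joints with hybrids included. Igkv1-135 had inserted bases in 12.9, 11.9 and 13.0% of joints in WT and in 0.370, 2.44 and 3.29% in Ku70-/- cells, a log2 difference of the odds of -3.28 (adjusted p = 1.59e-05), or -2.30 without library 1. In the limma fit of only the groups compared its adjusted p was 0.00924. Igkv1-133 had 13.9, 14.2 and 14.7% against 0.465, 2.02 and 0.542%, and Igkv1-132 had 17.2, 9.03 and 11.1% against 0, 1.90 and 1.72%. No library overlapped at any of the genes, and all 3 were called with each library left out. In the fit of all arrested libraries 85.7% of all sites were called. Inserted runs in WT cells were short, with a median of 2 bases in all 9 DMSO values and up to 3 bases in 80.1 to 91.9% of them. Of the insertions at Igkv1-135 in WT DMSO libraries, 63.0, 64.6 and 62.1% equalled the reverse complement of the adjoining bases of one of the ends, as palindromic additions do that are left by opening a hairpin off its centre. In Ku70-/- libraries 2 and 3 the shares were 56.6% of 122 and 62.9% of 178 insertions, and in library 1 it was 0 of 11. Few Ku70-/- insertions lie behind the shares of Igkv1-133 and Igkv1-132. With DMSO none of 1, 8 and 5 at Igkv1-133 matched, and 1 of 3 and 1 of 11 at Igkv1-132. At Igkv1-135 the Ku70-/- shares were 41.5, 59.3 and 39.8% of 159, 172 and 88 insertions with L67. With L82-G17 they were 11.1, 0 and 28.2% of 72, 52 and 110. With L67 the Ku70-/- shares were 39.1, 24.4 and 66.7% of 23, 41 and 30 insertions at Igkv1-133. At Igkv1-132 they were 0% of 11, 12 and 3. Single bases made up 33.7 to 40.6% of the WT insertions at Igkv1-135, and the share that would match either end by chance was not computed.

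From the signal end insertions were rare in both genotypes, again with hybrids included. Igkv1-135 had 1.57, 1.64 and 1.39% in WT and 0.523, 1.40 and 1.15% in Ku70-/- cells, and the log2 differences of the 3 genes lay between -0.70 and 0.07. None was called by limma or had an unadjusted p under 0.05, and 2.68% of all sites were called. Counted once per distinct junction all 3 were lower in Ku70-/- cells and called (-1.74, -1.88 and -1.69). The share of all sites called with that counting is not given here. The inhibitors changed insertions at none of the 3 genes in 24 limma tests, 1 with an unadjusted p under 0.05 (0.112% of all site tests called). Without Ku70-/- DMSO library 2, L67 was called from the coding end at Igkv1-133 (2.35), and without library 1 the value was 1.42. Over the 5 shares, no test of a difference between genotypes in an inhibitor effect was called at the 3 genes by limma (60 tests, 3 with an unadjusted p under 0.05), against 0.223% of all site tests. Without WT L82-G17 library 3 the signal end share of Igkv1-135 within 10 bp was called (-5.32).

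Single joints show these differences base by base. They are written as 20 bases on each side of the joint, with bases of the Jκ1 side in capitals (Jκ1, its RSS or the sequence after Jκ1) and bases of the V gene side in lower case (the gene, its RSS or the sequence after the RSS). Bases of an overlap belong to both sides and are written in capitals. The lower case part therefore ends short of the stated cut point by the length of the overlap. The leading coding joint of Igkv1-135 in WT cells kept every coding base of the gene and lost 3 bases of Jκ1. It was seen 1152, 1214 and 1229 times in the 3 DMSO libraries, 14.9% of the gene's junctions. The joint next in number lost 1 base of the gene and 2 of Jκ1 (1140, 1343 and 1065 junctions, 14.7%).
Igkv1-135 WT coding joint 1: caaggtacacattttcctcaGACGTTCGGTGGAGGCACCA
Igkv1-135 WT coding joint 2: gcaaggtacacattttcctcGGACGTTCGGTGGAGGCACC
Igkv1-133 WT coding joint 1: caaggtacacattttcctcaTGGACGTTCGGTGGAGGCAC
Igkv1-132 WT coding joint 1: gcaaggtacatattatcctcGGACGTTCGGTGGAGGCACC
The leading joint of Igkv1-133 lost 1 base of Jκ1 and none of the gene (473, 497 and 571 junctions, 12.3%). That of Igkv1-132 had the same cut points as the second joint of Igkv1-135 (164, 217 and 139 junctions, 10.4%). In Ku70-/- cells with the coding end bait the joint of Igkv1-135 with most copies was seen 1282 times (8.26% of 15514 junctions), all in library 1. The sequences shown for these cells are of coding joints that were seen in all 3 DMSO libraries. Among those the one with most copies had 168 junctions (1.08%), 136 of them in library 1, and lost 32 bases of the gene and 32 of Jκ1 with 1 base of overlap. The next among them lost 3 and 5 bases with 1 base of overlap and was seen 21, 47 and 69 times.
Igkv1-135 Ku70-/- coding joint 1: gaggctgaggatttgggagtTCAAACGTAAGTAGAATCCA
Igkv1-135 Ku70-/- coding joint 2: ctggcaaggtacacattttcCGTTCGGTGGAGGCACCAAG

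At the signal end WT cells made 1 joint above all others. The precise fusion of heptamer to heptamer was found in 95.7, 96.1 and 97.2% of the signal joints of Igkv1-135, in 94.1, 98.5 and 99.1% of those of Igkv1-133 and in 95.3, 97.5 and 96.1% of those of Igkv1-132. Across the arrested WT libraries of all treatments it was never under 90.7%.
Igkv1-135 signal joint: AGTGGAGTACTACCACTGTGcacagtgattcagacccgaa
Igkv1-133 signal joint: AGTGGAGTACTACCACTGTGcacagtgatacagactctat
Igkv1-132 signal joint: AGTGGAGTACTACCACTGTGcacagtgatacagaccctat
In Ku70-/- cells with DMSO the same joint made up 42.0, 3.25 and 2.89% at Igkv1-135, 0, 1.51 and 6.26% at Igkv1-133 and 99.4, 1.47 and 1.62% at Igkv1-132. The high values were those of library 1, where few joints were copied many times. In the other 8 arrested Ku70-/- libraries no gene exceeded 6.26%.

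From the coding end, the same joints recurred between libraries in WT cells and seldom in Ku70-/- cells. At Igkv1-135, 81 of 302 distinct coding end joints with DMSO were seen in all 3 WT libraries, and they carried 95.3% of the gene's junctions. Among Ku70-/- joints 6 of 875 were seen in all 3 libraries (4.51% of junctions), and at Igkv1-133 and Igkv1-132 there were 0 of 234 and 0 of 153. Library 1, with few distinct junctions, limits how many could be seen in all 3. Joints were also alike between the genes when named by the bases lost from each side, the overlap or gap and the kind of end. In WT cells 83 such joints were found at all 3 genes and held 92.5 to 94.2% of each gene's coding end junctions. The Ku70-/- cells shared 22, with 9.68 to 17.2% of the junctions. At the signal end 7 of 702 Ku70-/- joints of Igkv1-135 were seen in all 3 libraries and held 27.3% of junctions, and 1 of 181 of Igkv1-132 held 46.6%, mostly copies of the precise fusion in library 1, and 28 joints shared by the genes held 16 to 61%.

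Of the 22 shared coding end bait joints, 3 were hybrids, and 1 of these was printed by the same bases at all 3 genes. It lost 25 bases from the signal end of the gene and, on the Jκ1 side, 52 bases from the coding end. Jκ1 is 38 bases long, so the whole segment was lost and the joint lies in the sequence after it. The overlap was 4 bp.
Hybrid joint shared by the 3 genes: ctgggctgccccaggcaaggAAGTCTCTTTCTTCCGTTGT
At Igkv1-135 it was seen 176 times in 5 Ku70-/- coding end libraries, 55 and 66 times in DMSO libraries 2 and 3, 31 times in L67 library 1, and 9 and 15 times in L82-G17 libraries 1 and 3. At Igkv1-133 it was seen 7 times and at Igkv1-132 24 times, each in 3 Ku70-/- libraries of the same bait.

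The reading frame of the coding joints was taken from the coding length of 362 bases in each gene and the frame of Jκ1. Joints that lost up to 100 bases from each side were counted. Jκ1 is 38 bases long, and any joints that lost all of it, and so kept no Jκ1 frame, were not set apart. In WT cells with DMSO 48.4, 53.8 and 48.1% of the coding joints of Igkv1-135 were in frame, 46.9, 42.2 and 44.3% of those of Igkv1-133 and 44.9, 46.4 and 40.6% of those of Igkv1-132. In Ku70-/- libraries 2 and 3 the shares were 26.6 and 32.3%, 24.7 and 28.9%, and 21.0 and 42.5%. Library 1 had 1.06, 0 and 83.4% at the 3 genes, set by a few copied joints. Counted once per distinct joint, arrested WT libraries had 31.0 to 50.0% in frame and Ku70-/- libraries other than library 1 had 28.9 to 39.8%. The frame shares were not tested.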

How the data were processed

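HTGTS-JoinT-seq junction lists of 48 libraries (16 groups of 3) were used. The authors made 1 list per library: reads of genomic DNA, sampled to 500000 read pairs, were aligned to mm9 (Bowtie2 is named in the submitters' processing notes, its version is not given in the sources used here), and each row of a deposited list is 1 junction with the prey position and strand, and the bait and prey alignment coordinates on the read (score-type values without normalization). Duplicates were kept. For this work, junctions within 200 bp of each of 138 break sites, found from WT signal end junctions, were counted with Python 3.11.15, pandas 2.3.3 and numpy 2.4.6 and divided by the junctions of chromosome 6 from 67.5 to 70.66 Mb. The number of junctions, 8294 to 385847 per library, sets the precision, and 3 junctions were taken as the limit that a count of 0 allows. This limit takes copies of a joint as separate counts.

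Groups came from the labels, which number no libraries. Log2 usage per 1000 (with the value of 1 junction added) and log2 odds of each share (offset 0.5) were tested with limma 3.58.1 in R 4.3.3, with group means and eBayes with trend, over sites with at least 50 junctions per library on average. Arrested libraries were fitted together, and cycling libraries with the DMSO libraries. P-values were two-sided and Benjamini-Hochberg adjusted over all sites of a comparison, with a threshold of 0.05. Hybrid joints were told by prey strand, trimming as junctions within 10 bp among those within 100 bp, and structure among overlaps or gaps up to 20 bp. The fits were tested on simulated data. The 3 genes, the other Igkv1 and other deletional sites, and the 3 sites most alike per bait (by Pearson correlation of log2 usage over 24 libraries) were named by rule; members and lists were chosen with earlier results of these data known. The alternatives were distinct junctions, a 100-bp window, other denominators, a pseudocount of 10, other filters, centring on the median site, smaller fits, eBayes without trend, the larger sequencing run, annotated sites, other class limits (20 bp, any overlap, side of the break), and leaving out each library. Leaving out both libraries of few distinct junctions, and trimming among joints of the same kind, were added after seeing the data.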

Additional observations from a re-analysis of the deposited data

Results flagged for a closer look

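The effect of the bait on the usage of Igkv1-135 differed between the genotypes (log2 value -1.11, limma interaction test): the signal end bait gave more of it than the coding end bait in WT cells, and in Ku70-/- cells the difference did not pass the threshold. In WT cells every L82-G17 library had more Igkv1-135 than every DMSO library from the coding end (0.37, adjusted p = 0.0729) and less from the signal end (-0.31, adjusted p = 0.119). Neither value passed the threshold, and the difference between them was not tested. Its usage in arrested WT libraries lay below that of all cycling ones from the coding end (-0.90, adjusted p = 0.0589, not past the threshold) and above it from the signal end (1.94, adjusted p = 3.05e-05), and that difference was not tested either. With L82-G17 the share of Igkv1-135 junctions within 10 bp of the break, from the coding end, was higher in all WT libraries (1.06 on the log2 scale of the odds) and lower in all Ku70-/- libraries (-0.95, and -0.37 without DMSO library 1), neither past the threshold. The interaction test gave -2.02 with an adjusted p of 0.687, and -1.43 without DMSO library 1. Apart from the bait interaction, these items were picked because the groups did not overlap and related comparisons had opposite directions. How many of all sites have that pattern was not counted.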

How the results depend on the processing

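For single genes the call, and the sign wherever a value was called, was kept in 2040 of 2088 values with 1 library left out and in 2125 of 2205 under the other alternatives. A change of sign between values that were not called does not count here as a change. Most of the tests were not called at first, and staying uncalled counts as kept, so these numbers say little about the called results. With 1 library left out 26 values lost a call, 21 gained one and 1 reversed. Under the other alternatives 29 lost a call, 41 gained one and 10 reversed. Limits: 3 libraries a group, 1 line a genotype, copied joints kept, few junctions in cycling libraries and in library 1 of the Ku70-/- DMSO groups, and shares that move together. The cause of the changes below was not tested, apart from those that leave out libraries. No paired analysis was possible because the labels give no replicate numbers.

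Counting each distinct junction once turned the difference between genotypes in direct joints from the coding end to 0.11 (Igkv1-133) and 0.85 (Igkv1-135), and from the signal end to 0.24 (Igkv1-132), 0.94 (Igkv1-133) and 0.81 (Igkv1-135). It turned that in signal end insertions to -1.88 (Igkv1-133), that in signal end usage to 0.46 (Igkv1-133) and 0.87 (Igkv1-135), and the effect of L82-G17 on WT signal end usage to 0.049 (Igkv1-133). The coding end difference in direct joints at Igkv1-132 ranged from -2.06 to 2.77 with 1 library left out, and was -2.06 without library 1 of the Ku70-/- DMSO group, whether that library was left out alone or with its signal end counterpart.

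The other values are counts of the 3 genes called. The share of all sites called under each alternative is not given beside them, so they show only how these calls depend on the setting. Between genotypes in coding end usage there were 2, and 1 without a filter, centred on the median site, fitted on only the groups compared, or without both libraries of few distinct junctions (1 to 2 with a library left out). In signal end usage there were 0, and 2 with distinct junctions and 1 with all junctions as denominator (0 to 1). Between baits in WT cells there were 2, and 1 when centred (1 to 2), and in Ku70-/- cells 1, and 0 in the smaller fit (1 to 2). In the bait interaction there was 1, and 2 with distinct junctions (1 to 2). With L82-G17, WT coding end usage had 0, and 1 with a pseudocount of 10, in the smaller fit or without both libraries. WT signal end usage had 1, and 0 with distinct junctions or centred, and 2 in the smaller fit or without both libraries (0 to 1). Ku70-/- coding end usage had 1, and 0 centred or in the smaller fit and 2 without both libraries (0 to 1). Ku70-/- signal end usage had 0 (0 to 1). With L67 there were 0 in all, and 1 with a 100-bp window or only annotated sites (0 to 2). The inhibitor interactions had 0, and 2 without both libraries. On arrest, WT coding end usage had 0, and 2 with distinct junctions, with a pseudocount of 10 or in the smaller fit, and 1 without a filter, with the larger sequencing run or without both libraries. WT signal end usage had 3, and 0 with distinct junctions. Ku70-/- signal end usage had 2, and 1 with distinct junctions and 0 centred or in the smaller fit (1 to 2).

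Among the shares, signal end hybrids between genotypes had 3, and 1 with distinct junctions. Inhibitors on the share within 10 bp had 0, and 1 without both libraries (0 to 1). Coding end microhomology had 0, and 3 with distinct junctions or without both libraries, and 2 in the smaller fit or with any overlap (0 to 2). Signal end microhomology had 2, and 0 with distinct junctions and 1 in the smaller fit. Inhibitors on microhomology had 0, and 1 with distinct junctions. Coding end direct joints had 2, and 1 in the smaller fit (1 to 2). Signal end direct joints had 3, and 1 with distinct junctions, which was in the opposite direction. Inhibitors on direct joints had 0 (0 to 2) and on insertions 0 (0 to 1). Signal end insertions had 0, and 3 with distinct junctions. Interactions of the 5 shares had 0 (0 to 1). For eBayes without trend and the other settings not named, each of these counts was within 1.5 times its first value.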
